A study of Caenorhabditis elegans with 2 samples.

Results

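The 34 genes described here encode translation factors, nucleolar and ribosome-associated proteins, and components of the insulin and target of rapamycin (TOR) pathways of Caenorhabditis elegans. They were chosen by name, with no value of the data in the rule but with earlier results of these data known. The shares below are therefore not from a blind choice of genes. All 34 were found among the 19973 protein-coding genes annotated on the 6 chromosomes. By role they fall into 8 elongation factor genes, 6 initiation factor genes, 8 genes for subunits of initiation factor eIF3, 6 nucleolar, RNA-binding or ribosome-associated genes, and 6 genes of insulin and TOR signalling. For each gene, the peaks of UNC-39 binding were taken whose summit, the position of highest enrichment within a peak, lay within 1000 bp of any annotated 5' end of its transcripts.

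UNC-39 is a homeodomain transcription factor with known roles in the development of mesoderm and neurons. Its binding was measured by ChIP-seq, the sequencing of DNA recovered with an immunoprecipitated protein, in entire mixed-sex larvae of the L2 stage. They were of strain OP186, in which an inserted transgene (wgIs186) supplies eGFP-tagged UNC-39 and the unc-119 allele ed3 is present. The 2 biological replicates form the only group. Every tissue of the larva is mixed in these samples, so binding in a few cells and weak binding in many cannot be told apart, and the protein measured is the tagged product of an inserted copy.

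Initiation factors bring the small ribosomal subunit and the messenger RNA cap together and set the start codon, and elongation factors then deliver transfer RNAs and move the ribosome along the message. Ribosomes are assembled in the nucleolus. In worms, insulin signalling through DAF-2 and the FOXO factor DAF-16, together with the TOR kinase, adjusts growth and protein synthesis to food supply and controls larval development and lifespan.

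The authors deposited a pooled list of 30000 peaks and background regions called on both replicates together, a thresholded list of 140 peaks made with the irreproducible discovery rate, and a list for each replicate, of 30000 regions for replicate 1 and 24978 for replicate 2. The signal of a peak is the authors' enrichment value, and it can be compared only within a list. It ran from 13.0 to 139 in the pooled list with a median of 17.0, from 7.86 to 64.9 in that of replicate 1, and from 7.23 to 77.8 in that of replicate 2. Rank 1 is the highest signal of a list. No read counts come with the lists. The depth is therefore unknown, and a low-ranked region may be background. With 1 group and no control samples among those used, no test was possible, and the counts below are set beside the same counts over all protein-coding genes.

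Of the 34 genes, 27 (79.4%) had a pooled summit within 1000 bp, beside 53.5% of all protein-coding genes. A thresholded summit lay at 1 of them, iff-2 (2.94%, beside 0.441% of all genes). Summits among the 1000 highest pooled peaks lay at 4 (11.8%, beside 2.53%), namely iff-2, pab-1, eef-1A.2 and ncl-1. Summits among the 3000 highest lay at 10 (29.4%, beside 7.40%), the further 6 being rack-1, eif-3.D, eef-1B.1, eif-3.B, ife-2 and daf-2. Among the genes with a summit, the median of the highest signal was 22.9 for the 27 genes and 17.9 for all 10680 such genes in the annotation.

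The count of 10 moved with the replicate and with how shared summits were assigned. In replicate 1's own list 6 of the 34 genes had a summit among the 3000 highest (17.6%, beside 7.16% of all genes). In replicate 2's list 12 did (35.3%, beside 7.55%). Only iff-2, eef-1A.2 and ncl-1 were in both sets, which is 3 genes (8.82%, beside 1.82%). When a summit counted only for the gene of any type with the nearest 5' end, 6 of the 34 genes had a summit among the 3000 highest pooled peaks (17.6%, beside 5.46% of all genes); eef-1A.2, eif-3.D, ncl-1 and rack-1 dropped out.

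**Figure D1:**
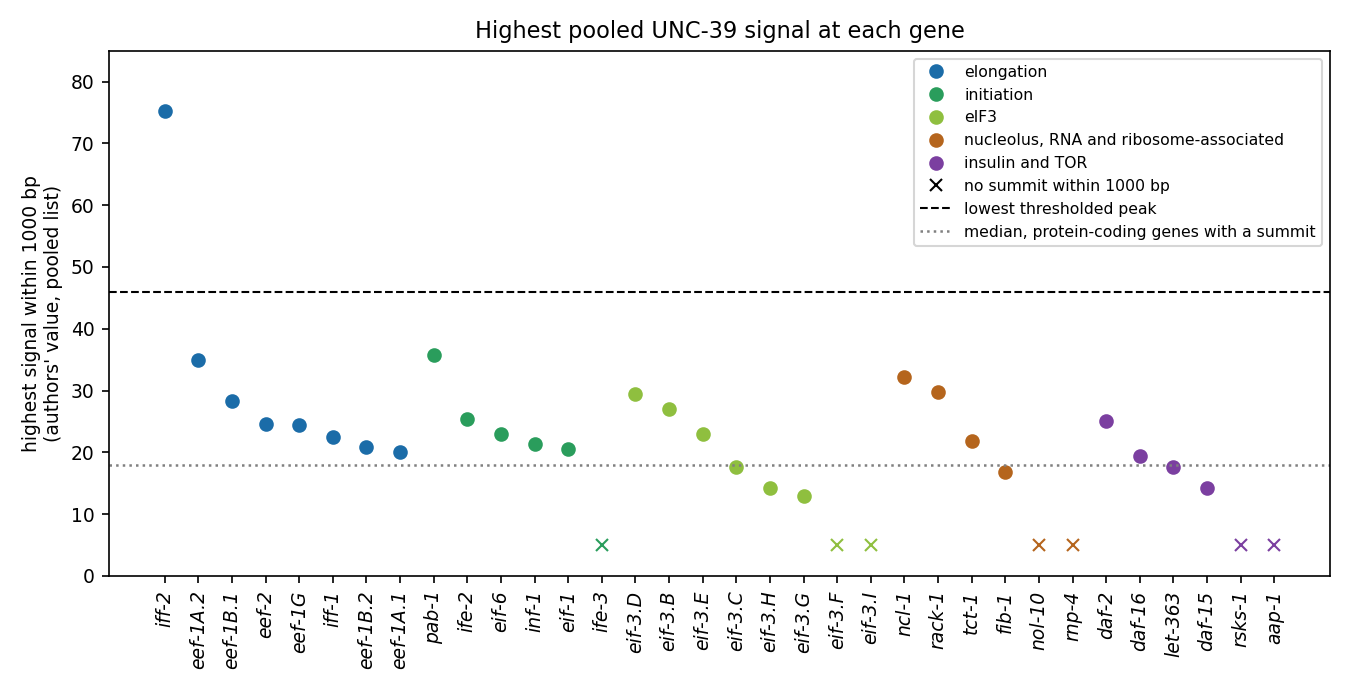
The highest pooled signal within 1000 bp of each gene (vertical axis, authors' value) is plotted for the 34 genes, coloured by role, with crosses for the 7 genes without a summit. The point for iff-2, at 75.3, is the only one above the lowest thresholded peak (dashed line, 45.9), and the dotted line is the median of all protein-coding genes with a summit, 17.9.

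**Figure D2:**
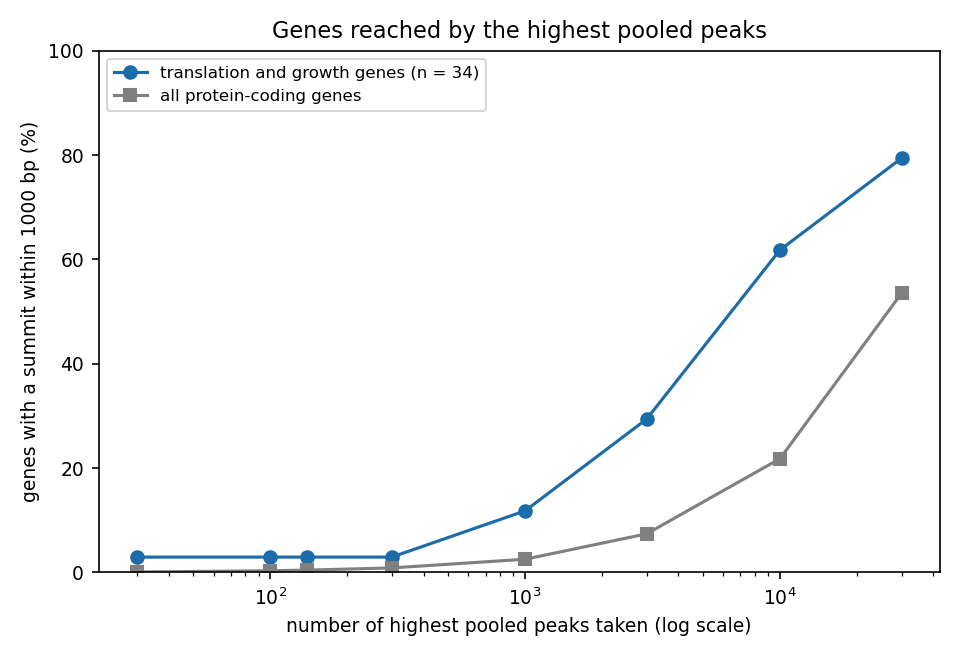
The share of genes with a summit within 1000 bp (vertical axis, percent) is plotted against the number of highest pooled peaks taken (horizontal axis, log scale), in blue for the 34 translation and growth genes and in grey for all protein-coding genes. The shares are 11.8% and 2.53% at 1000 peaks, 29.4% and 7.40% at 3000, and 79.4% and 53.5% for the full list.

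The highest peak of the group was at iff-2 (WBGene00002065, chromosome II, 8559375 to 8561367, minus strand), which encodes a homologue of eIF5A, a factor that helps the ribosome through slow steps of elongation. The summit lay 37 bp upstream of the 5' end, between genes, in the peak from 8561222 to 8561585. Its pooled signal was 75.3, rank 17 of 30000. Replicate 1 had a summit 4 bp away with a signal of 36.4, rank 14, and replicate 2 had one 10 bp away with a signal of 38.6, rank 33. Both replicates thus placed this peak near the top of their own lists.

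The sequences at 4 of the summits among the 3000 highest, 2 at elongation factor genes, 1 at an eIF3 gene and 1 at the insulin receptor gene, show DNA around the summit. Each printed stretch is free of annotated protein-coding exons, though the peak around it may be longer and reach into the gene, as at iff-2. They are from the RefSeq genome of WBcel235, 5' to 3' in the direction of the gene, up to 100 bases either side of the summit, with the 11 bases centred on the summit in capitals. The iff-2 stretch (chrII:8561368-8561503, minus strand) ends at the first base upstream of the gene. The others are eef-1A.2 (chrX:7823342-7823541, plus strand), eif-3.B (chrII:14795047-14795246, plus strand) and daf-2 (chrIII:3019961-3020160, minus strand).
iff-2: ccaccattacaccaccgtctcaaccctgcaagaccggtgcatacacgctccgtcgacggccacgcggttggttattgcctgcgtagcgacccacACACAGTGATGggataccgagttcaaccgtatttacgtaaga
eef-1A.2: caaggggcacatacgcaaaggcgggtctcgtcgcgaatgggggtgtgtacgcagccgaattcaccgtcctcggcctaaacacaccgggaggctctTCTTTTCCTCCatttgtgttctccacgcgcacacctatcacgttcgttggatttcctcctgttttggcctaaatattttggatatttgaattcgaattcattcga
eif-3.B: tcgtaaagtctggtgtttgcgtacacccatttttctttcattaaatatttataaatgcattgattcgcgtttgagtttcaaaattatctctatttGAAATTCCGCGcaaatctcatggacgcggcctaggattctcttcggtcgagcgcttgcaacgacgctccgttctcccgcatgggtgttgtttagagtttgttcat
daf-2: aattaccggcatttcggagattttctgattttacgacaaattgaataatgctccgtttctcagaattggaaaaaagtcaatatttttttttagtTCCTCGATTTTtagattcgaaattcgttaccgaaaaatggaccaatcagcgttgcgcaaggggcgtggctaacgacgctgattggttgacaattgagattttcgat

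The GC content of these stretches was 55.9% at iff-2, 50.5% at eef-1A.2, 42.0% at eif-3.B and 37.5% at daf-2. Across the 27 genes, the median GC content of the 200 bp around the highest summit was 41.0%, beside 38.5% at the highest summits of all protein-coding genes. It was 47.8% at the 10 genes with a summit among the 3000 highest and 42.0% over those 3000 peaks.

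All 8 elongation factor genes had a pooled summit, beside 53.5% of all protein-coding genes. Their highest signals ran from 20.0 to 75.3 with a median of 24.6, and 3 of the 8 (37.5%, beside 7.40%) were among the 3000 highest. The genes eef-1A.1 and eef-1A.2 encode the factor that delivers aminoacyl-tRNA to the ribosome; their annotated proteins are identical over 463 residues, and their coding sequences are 94.0% identical. The upstream peaks of the pair differed in the pooled list and in replicate 1. In replicate 2 they were similar, at 18.9 (rank 585) for eef-1A.2 and 17.0 (rank 1019) for eef-1A.1. At eef-1A.2 (WBGene00001169, chromosome X, 7823654 to 7825769) the highest pooled summit lay 212 bp upstream with a signal of 34.9, rank 472, inside the noncoding RNA gene R03G5.8, whose own 5' end was nearer at 83 bp. Replicate 1 had the same summit within 1 bp (25.6, rank 109). Replicate 2 had none within 100 bp of it, and its own summit lay 437 bp upstream (18.9, rank 585), so both replicates ranked a peak upstream of eef-1A.2 high, but at different positions.

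At eef-1A.1 (WBGene00001168, chromosome III, 6970026 to 6971712) the pooled summit lay 411 bp upstream with a signal of 20.0, rank 8473. Nearer to it were the 5' ends of the microRNA gene cel-mir-5549, at 38 bp, and of rfc-4, at 130 bp. Replicate 2 had the pooled summit at 17.0, rank 1019. Replicate 1 had its only summit further upstream, at 724 bp (14.1, rank 4777), in a coding exon of rfc-4. In 44 of the 45 pooled peaks at the 27 genes, the upstream peaks of this pair among them, every 36-base word occurred once in the genome. The other was the second eef-1A.2 peak, 887 bp downstream in the coding exon, where 93.0% of the words did. Peaks of the replicates' own lists were not checked in this way. Whether reads from the near-identical coding sequences were placed at the wrong gene was not tested.

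The genes eef-1B.1 and eef-1B.2 encode subunits of the exchange factor that recharges eEF1A with GTP, and eef-1G encodes its gamma subunit. At eef-1B.1 the highest pooled summit lay 10 bp downstream of the 5' end with a signal of 28.3, rank 1486. Replicate 1 had it at 10.1, rank 16300, and replicate 2 at 19.3, rank 525. At eef-1G, 2 pooled summits, each 10 bp from one of its 5' ends, had signals of 24.5 (rank 3287) and 22.2 (rank 5408). Replicate 2 had a summit near the second at 22.7, rank 265, its highest at any of the genes after iff-2, while replicate 1 had only 8.7, rank 24134, near the first. The peak at eef-1B.2 lay 832 bp downstream, in a coding exon, at 20.9.

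At eef-2, which encodes the GTPase that moves the ribosome by a codon, the pooled summit lay 14 bp upstream of the 5' end with a signal of 24.6, rank 3218. Replicate 1 had it at 8.7, rank 23944, and replicate 2 at 15.2, rank 1764. At iff-1, the second eIF5A homologue, the highest summit lay 678 bp downstream of the nearest 5' end, beyond the 3' end of the gene, with a pooled signal of 22.5 (rank 5080) and 15.3 in replicate 1 (rank 3136). The proteins of iff-1 and iff-2 are 69.2% identical. Of the 8 elongation factor genes, 2 had a summit among replicate 1's 3000 highest (25.0%, beside 7.16% of all genes). In replicate 2's list 6 did (75.0%, beside 7.55%).

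Of the 6 initiation factor genes, 5 (83.3%, beside 53.5% of all genes) had a pooled summit, with a median of 22.9. Among the 3000 highest were 2 (33.3%, beside 7.40%). At pab-1 (WBGene00003902, chromosome I, 10432856 to 10435876), which encodes a cytoplasmic poly(A)-binding protein, the summit lay in the coding exon 45 bp downstream of a 5' end, with a pooled signal of 35.7, rank 420. Replicate 1 had its summit 84 bp away at 13.7, rank 5495, and replicate 2 had one 9 bp away at 18.3, rank 690. At ife-2, which encodes a form of the cap-binding protein eIF4E, the summit lay 13 bp downstream of the 5' end at 25.4, rank 2683. Replicate 2 had it at 14.5, rank 2232, and replicate 1 had no summit within 1000 bp. Of the replicates' lists, only that of replicate 2 held the ife-2 peak.

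The remaining initiation factor genes had lower summits. They were 22.9 at eif-6, whose product keeps the large subunit from joining early, 21.4 at inf-1, which encodes the eIF4A helicase, and 20.6 at eif-1, which encodes a factor for start codon choice. The eif-6 summit lay 386 bp upstream with the 5' end of pbs-2 nearer, at 280 bp. Those of inf-1 and eif-1 lay 481 bp and 372 bp inside the genes. At eif-1 the 5' end of pigb-1 was nearer, at 131 bp.

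The other cap-binding gene, ife-3 (WBGene00002061, chromosome V, 6584 to 7828), shows how much the distance limit decides. Its nearest pooled peak was a thresholded one (8735 to 9098, signal 69.8, rank 22), with its summit 1089 bp upstream and so outside the limit. Replicate 2 had this summit at 39.7, rank 29. Replicate 1 had 16.9, rank 1817, at 93 bp from it, and another summit at 32.9, rank 27, which lay 978 bp upstream of ife-3 and so inside the limit. The nearest 5' end to the pooled and to that replicate 1 summit was that of B0348.10. Just inside the limit lay the summits of daf-15 at 953 bp (14.2) and rack-1 at 912 bp (29.7). Just outside it were further summits near iff-1 at 1001 bp (14), ncl-1 at 1002 bp (19.1) and pab-1 at 1036 bp (21.9). The nearest 5' end was that of cdk-1 for this iff-1 summit and that of rpl-30 for this pab-1 summit.

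Of the 8 eIF3 genes, whose products form the scaffold on the small subunit, 6 (75.0%, beside 53.5% of all genes) had a pooled summit. Their median was 20.3, and 2 (25.0%, beside 7.40%) were among the 3000 highest. At eif-3.D (chromosome III, 8969635 to 8971578, minus strand) the summit lay 392 bp upstream at 29.5, rank 1185, in a coding exon of R08D7.4, whose 5' end was 28 bp away. Replicate 1 had it at 9.4, rank 19883, and replicate 2 at 14.7, rank 2138. At eif-3.B (chromosome II, 14795404 to 14798235, plus strand) the summit lay between genes, 257 bp upstream, at 27.0, rank 1949. Replicate 1 had this summit at 9.5, rank 19294, and replicate 2 at 18.6, rank 648. Both eIF3 peaks ranked higher in replicate 2. No eIF3 gene had a summit among replicate 1's 3000 highest, but only 7.16% of all genes did, so 0 of 8 shows little.

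The other eIF3 summits were 23.0 at eif-3.E, 154 bp upstream, 17.6 at eif-3.C, 14.3 at eif-3.H and 13.0 at eif-3.G, the last being near the bottom of the pooled list at rank 29863. The eif-3.H summit was 35 bp from the 5' end of C41D11.3, and neither replicate had a summit within 100 bp of it. At eif-3.I and eif-3.F the pooled list had no summit in reach. Replicate 2 nevertheless had one 18 bp upstream of a 5' end of eif-3.I (14, rank 2709), and replicate 1 had one at eif-3.F (8.6, rank 24711).

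**Figure D3:**
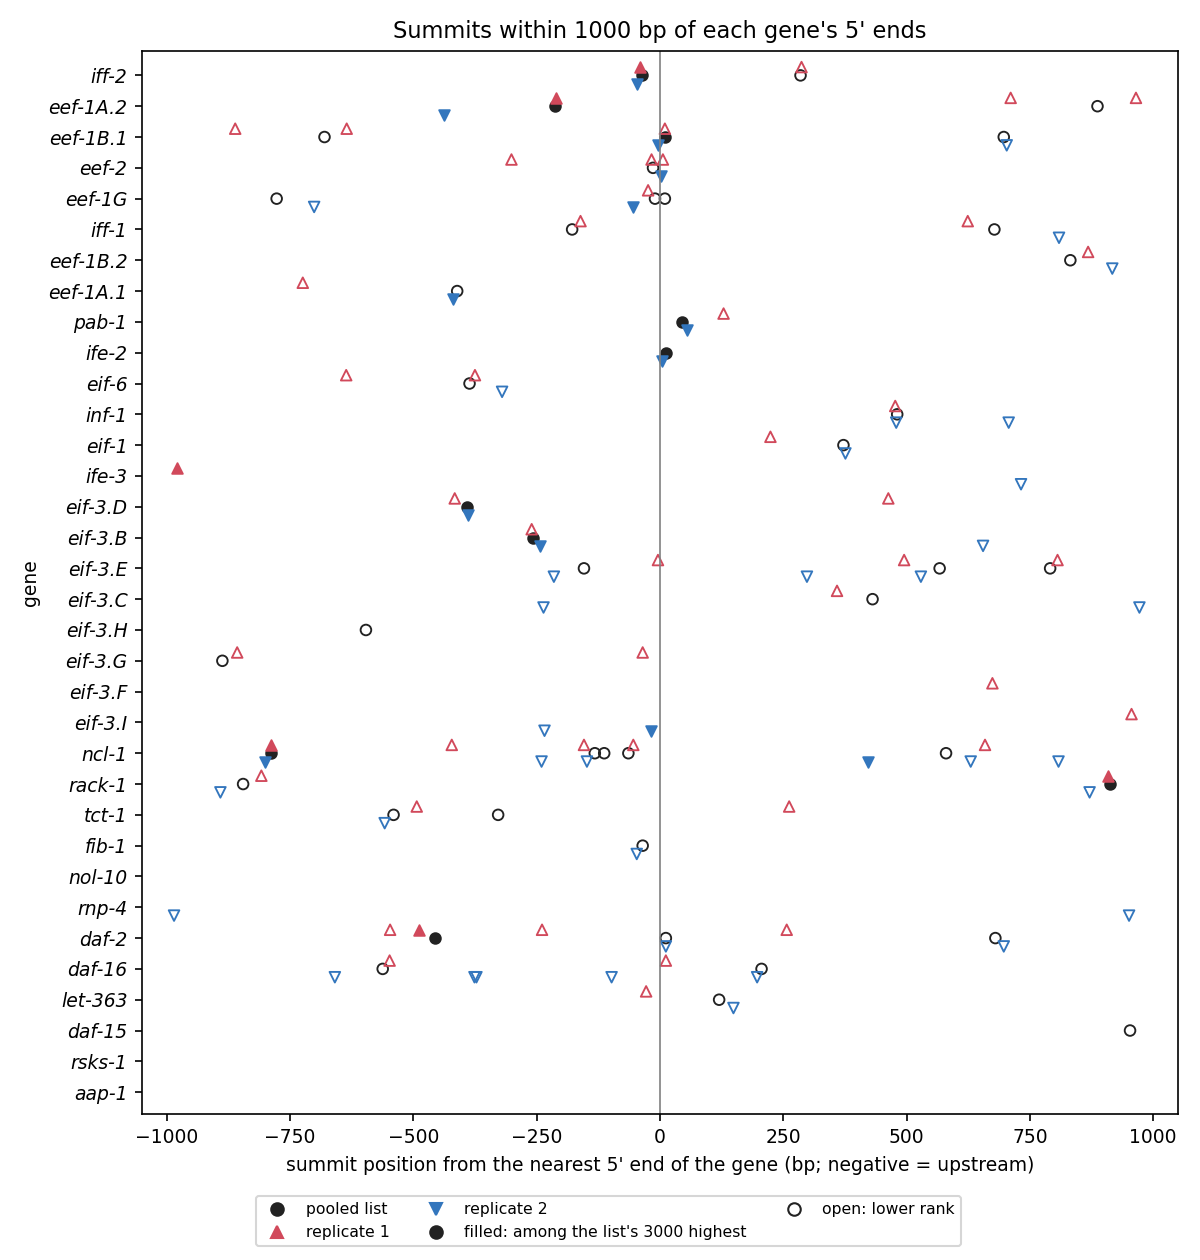
Summits are plotted by distance from the nearest 5' end of each gene (horizontal axis, bp, negative upstream) for the pooled list (circles), replicate 1 (upward triangles) and replicate 2 (downward triangles), filled where the peak is among the 3000 highest of its list. At iff-2 the 3 filled symbols lie together, at 37, 41 and 47 bp upstream, while at eef-1A.2 those of the replicates lie 211 and 437 bp upstream.

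Of the 6 nucleolar, RNA-binding and ribosome-associated genes, 4 (66.7%, beside 53.5% of all genes) had a pooled summit, with a median of 25.8. At ncl-1 (WBGene00003559, chromosome III, 7719729 to 7738105), whose TRIM-NHL protein limits nucleolus size, 5 pooled summits were in reach of its 5' ends. The highest lay in an intron, 789 bp upstream of the nearest ncl-1 5' end, at 32.2, rank 713. Nearer to it were the 5' ends of the noncoding gene ZK112.14, at 401 bp, and of the protein-coding gene ZK112.4, at 587 bp. Replicate 1 had this summit at 16.6, rank 2051, and replicate 2 at 15, rank 1890, so it had similar places in both lists. A still higher pooled peak of ncl-1 lay outside the limit, 1234 bp upstream of a 5' end, at 37.0, rank 340, with 24.4 in replicate 1 (rank 146) and 13.0 in replicate 2 (rank 3856).

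At rack-1 (chromosome IV, 10176680 to 10178099), which encodes a scaffold protein of the small ribosomal subunit, the highest summit lay in its coding exon, 912 bp downstream of the 5' end, at 29.7, rank 1153. The 5' end of mspn-1 was nearer, at 373 bp. Replicate 1 had the summit at 17.0, rank 1794, and replicate 2 at 12, rank 5269. The summit of tct-1, the gene of the translationally controlled tumour protein, lay 540 bp upstream at 21.9, in a coding exon of the ribosomal protein gene rla-0. At fib-1, which encodes the nucleolar methyltransferase fibrillarin, it lay 35 bp upstream at 16.8, and replicate 2 but not replicate 1 had it, at 10.6. The gene rnp-4, for a protein of the exon junction complex, had summits in replicate 2 only, and nol-10 had none in any of the 3 lists.

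Of the 6 insulin and TOR genes, 4 (66.7%, beside 53.5% of all genes) had a pooled summit, with a median of 18.6. Among the 3000 highest was 1 (16.7%, beside 7.40%), daf-2. At daf-2 (WBGene00000898, chromosome III, 2994514 to 3040846, minus strand), the insulin receptor gene, the highest summit lay in an intron, 455 bp upstream of an internal 5' end, at 25.0, rank 2978. Replicate 1 had it at 15.8, rank 2680, and replicate 2 had none within 100 bp. With only the most upstream 5' end of each gene, daf-2 and ncl-1 were no longer among the 10. At the most upstream end of daf-2, a summit 12 bp downstream had a pooled signal of 13.9 (rank 25973), with 8.8 in replicate 2 (rank 15389).

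The summits of daf-16, the FOXO factor gene, were intronic, the highest at 19.4, rank 9460, with 10.9 in replicate 1 and 7.9 in replicate 2. A higher pooled peak lay outside the limit, 1401 bp upstream of a daf-16 5' end, at 30.9, rank 914. Its nearest 5' end was that of the noncoding gene R13H8.5. At let-363, the TOR kinase gene, the summit lay 120 bp downstream of a 5' end at 17.7, close to the median of all genes with a summit. At daf-15, which encodes the TOR partner Raptor, the pooled list had 14.2 at 953 bp, and neither replicate had a summit in reach. The genes rsks-1, for the S6 kinase, and aap-1, for the adaptor subunit of phosphoinositide 3-kinase, had no summit in any of the 3 lists.

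Over the 27 genes, 45 pooled summits were in reach of a 5' end. Of these 24 lay upstream of the end (53.3%, beside 48.5% of such summits at all protein-coding genes), 10 lay within 100 bp of it (22.2%, beside 12.7%), and 27 within 500 bp (60.0%, beside 54.3%). The 7 genes whose highest summit lay within 100 bp were iff-2, eef-1B.1, eef-1G, eef-2, pab-1, ife-2 and fib-1. For 31 of the 45 summits (68.9%, beside 78.0%) the gene's own 5' end was the nearest of any gene. Of the 27 highest summits, 8 were between genes (29.6%, beside 28.6% of the highest summits of all genes), 11 in coding exons (40.7%, beside 36.5%), 5 in introns (18.5%, beside 26%), 2 in untranslated exons (7.41%, beside 6.78%) and 1 in a noncoding gene (3.70%, beside 2.13%). The order of these classes was the same in all genes, with coding exons first and noncoding genes last. The genes had a median of 2 annotated 5' ends, beside 1 for all genes. The median length in reach was 2005 bp, beside 2001 bp, but genes with many 5' ends had much more sequence searched. There were 8 ends at ncl-1, 7 at daf-2 and 7 at daf-16. The longest length in reach was 12104 bp, beside 22190 bp over all genes.

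Taken without regard to which summit, 26 of the 34 genes had one in replicate 1's list (76.5%, beside 53.1% of all genes), 27 had one in replicate 2's (79.4%, beside 46.5%), and 24 had one in both (70.6%, beside 30%). When the summits of both lists had to lie within 100 bp of each other, 13 genes remained, beside 13.0% of all genes. Of the 45 pooled summits, 17 had a partner within 100 bp in both replicates (37.8%, beside 19.3% of summits at all genes), 12 in replicate 1 alone (26.7%, beside 35.9%), 12 in replicate 2 alone (26.7%, beside 27.4%) and 4 in neither (8.89%, beside 17.4%). Of the 17 with both partners, 7 ranked higher in replicate 2 as a share of the list (41.2%, beside 50.4% at all genes). Among the 3000 highest the members' summits had both partners in 7 of 10 cases, beside 67.4% at all genes.

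**Figure D4:**
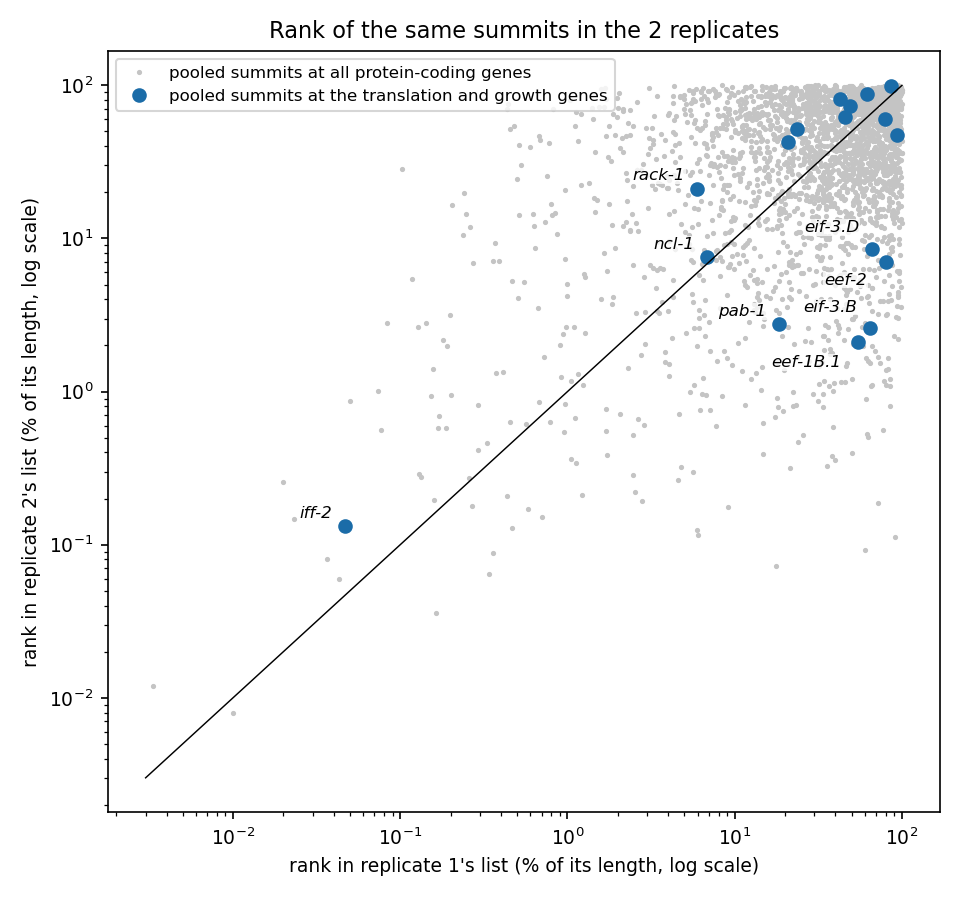
For each pooled summit with a partner within 100 bp in both replicates, the rank in replicate 2 (vertical axis) is plotted against that in replicate 1 (horizontal axis), both as percent of the list's length on log scales, in grey for all protein-coding genes and in blue for the translation and growth genes. The iff-2 summit is within the highest 0.0467% and 0.132% of the lists, whereas eef-1B.1, eif-3.B, eif-3.D and eef-2 are far below the diagonal, ranked between 54.3% and 79.8% in replicate 1 and between 2.10% and 8.56% in replicate 2. Summits of daf-16 (42.5% and 81.8%), inf-1 (48.6% and 73.4%) and eef-1B.2 (62.0% and 88.2%) lie above it, as do 10 of the 17 in all.

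Sequence words were searched on both strands, without mismatch, in the 200 bp around the 27 highest summits. GAGAGA was present at 4 (14.8%), at eef-1A.1, eif-3.D, eif-3.G and rack-1, beside 13.8% of all pooled peaks. TGATAA, which holds the core bound by factors of the GATA family, was present at 4 (14.8%, beside 16.3%), at eif-3.C, eif-3.D, eif-3.E and daf-16. TGATAC was at iff-1 (6.69% of all pooled peaks), TGACAC at ife-2 (8.17%) and CACGTG, an E-box, at eif-3.H (4.23%). TCAGGTTTC (0.240%) and CAGCTG (4.90%) were at 0 of 27, which allows a share of up to 11.1%. TGATAA and TGATAC differ in their last letter, and CACGTG and CAGCTG read the same on both strands. None of the 7 words was in the 4 printed stretches.

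Other genes of the same pathways were listed by name, and 70 were found in the annotation. Of these 49 (70.0%) had a pooled summit, beside 53.5% of all protein-coding genes. A summit among the 3000 highest lay at 12 (17.1%, beside 7.40%). A thresholded summit lay at 0 of the 70, and with a share of 0.441% over all genes this 0 shows little. A summit among the 1000 highest lay at 5, beside 2.53% of all genes. The 5 were erfa-3, a release factor gene (37.7, rank 313), pab-2, a second poly(A)-binding protein gene (33.5, rank 583), akt-2, an insulin pathway kinase gene (33.5, rank 590), eif-2Bgamma, for a subunit of the eIF2 exchange factor (33.2, rank 619), and aak-2, for a catalytic subunit of AMP-activated kinase (30.6, rank 956). By list, a summit among the 3000 highest lay at 3 of 22 initiation factor genes, 1 of 7 elongation, release and translation control genes, 3 of 20 nucleolus and ribosome assembly genes and 5 of 21 insulin and TOR genes. Of 78 cytosolic ribosomal protein genes, 58 (74.4%, beside 53.5% of all genes) had a pooled summit. A summit among the 3000 highest lay at 22 (28.2%, beside 7.40%), and a thresholded one at 8 (all genes 0.441%). For the translation and growth genes these counts were 10 of 34 (29.4%) and 1.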

How the data were processed

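ChIP-seq peaks of eGFP-tagged UNC-39 from 2 biological replicates were used as deposited. Per the labels' file listings, the authors called peaks on each replicate and on both together, each with a control alignment, and made the thresholded list with the irreproducible discovery rate. For the aligner, the caller and their cut-offs: not given in the sources used here. Signal in the deposited narrowPeak lists is the authors' value per peak, on ce11, and is not comparable between lists. Peaks and summits were joined to Ensembl release 115 genes of WBcel235, the same assembly, with Python 3.11.15, pandas 2.3.3 and numpy 2.4.6; sequence identities used Biopython 1.88. Overlapping genes share summits. Depth is unknown, and it could move how many regions a replicate's list holds and how they rank. Every value is a description: there is 1 group, and no statistical test was made. The join was checked on simulated summits.

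The genes and lists were chosen with earlier results of these data known. The rule for names covers all 34 genes with their highest pooled summits, the nearest other gene at summits among the 3000 highest, and pathway genes with a summit among the 1000 highest; further summits and neighbours were named after their values were seen. Alternatives changed the distance, the assignment of summits, the 5' ends, the list and the match between replicates.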

Additional observations from a re-analysis of the deposited data

How the results depend on the processing

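The number of genes with a pooled summit stayed within 1.5 times 27 under all 6 alternatives tried, but the share of all genes beside it moved: it was 22 genes beside 34.4% within 500 bp and 31 beside 75.0% within 2000 bp. A thresholded summit lay at 2 genes within 2000 bp, the second being ife-3 (all genes 0.756%), and at 3 or 1 when as many highest peaks were taken from the list of replicate 1 or replicate 2 (all genes 0.406% and 0.431%). Summits in both replicates' lists were at 15 genes when only the nearest gene counted (all genes 22.3%) and at 13 when they had to lie within 100 bp of each other (all genes 13.0%). A summit among the 3000 highest lay at 6 genes with the nearest gene only (all genes 5.46%), at 4 with the 1000 highest (2.53%), and at 6 to 12 with a single replicate's list (7.16% and 7.55%). The median signal of 22.9 became 21.4 with the nearest gene only and 22.4 with the most upstream 5' end; it was 11.4 to 12 in the replicates' lists, which have another scale. The share of summits upstream, 53.3%, was 59.3% within 500 bp, 48.2% within 2000 bp, 48.4% with the nearest gene only and 47.1% with the most upstream 5' end, beside 48.8%, 48.6%, 42.6% and 48.3% for all genes, so its side relative to all genes changed with the setting. The causes were not tested. No paired analysis was possible because there is 1 group. Without read counts, what depth limits cannot be given.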
